A study of Mus musculus with 20 samples.

Results

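The arginine and urea cycle genes described here were 10 named genes, out of 39179 genes in the count tables: Ass1, Asl, Arg1, Arg2, Otc, Nags, Gatm, Gamt, Oat and Nos2. They were chosen by name and matched by Ensembl identifier, and all 10 were found in the tables. RNA sequencing had counted transcripts in 20 libraries of immortalised epithelial cells from the kidney of C57BL/6J mice, in 4 groups of 5. The first 2 groups, clone1 and clone19, are labelled as having a deletion of Fh1, the gene of fumarate hydratase. Rec cells are labelled as re-expressing wild-type Fh1, and Fh1_fl_fl cells as Fh1 wild type. All groups were grown in DMEM with fetal bovine serum and a uridine supplement, with no other treatment named. Each deletion group is 1 clone, so differences between clone1 and clone19 may be differences between 2 cell lines. In each comparison with Fh1_fl_fl or Rec, the Fh1 state and the cell line cannot be told apart either. The labels do not say which clone gave rise to Rec, which part of Fh1 is deleted, or if replicate libraries were grown as separate cultures. The p-values therefore measure the spread between these libraries alone, which may be technical.

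In the urea cycle, argininosuccinate synthase (Ass1) joins citrulline and aspartate, and argininosuccinate lyase (Asl) splits the product into arginine and fumarate. Arginase then releases urea and ornithine from arginine. The reaction of Asl can run in reverse: in cells without fumarate hydratase, accumulated fumarate is known to be joined to arginine to form argininosuccinate. The whole urea cycle runs in liver, whereas the kidney is known for making arginine from circulating citrulline with Ass1 and Asl, in the proximal tubule, and for the first step of creatine synthesis.

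The gene counts summed to 5988447 to 18972176 per library (median 10485784), and 3 counts, the upper limit that a count of 0 allows, corresponded to 0.158 to 0.501 CPM in single libraries, CPM being the count scaled to the library's size. Such limits and the intervals below cover counting error only. One library stood apart: in clone19 replicate 3 the ribosomal-repeat locus Gm42418 took 8.20% of the gene counts, against a median of 0.314% over all libraries. Without that library the number of called member genes was the same in each of the 6 comparisons. Fh1 RNA itself was counted in all groups. It stood at 123, 111, 108, 109 and 112 CPM in clone1, at 82.0, 91.6, 86.1, 90.5 and 73.6 CPM in clone19, at 63.9, 76.4, 80.8, 69.2 and 66.4 CPM in Rec, and at 84.7, 96.3, 97.0, 97.2 and 86.6 CPM in Fh1_fl_fl. The clone1 libraries were thus above and the Rec libraries below all Fh1_fl_fl libraries, and clone19 overlapped them. The log2 difference was 0.29 in clone1 against Fh1_fl_fl (adjusted p = 5.98e-04, edgeR) and -0.12 in clone19 (adjusted p = 0.124). On library totals in place of TMM-scaled sizes these were 0.15 (adjusted p = 0.0656) and -0.25 (adjusted p = 0.00328), so the Fh1 calls depended on the scaling. Fh1 RNA was lowest in Rec, the group labelled as re-expressing it: 1.58-fold lower than in clone1 (adjusted p = 3.49e-09, edgeR), 1.19-fold lower than in clone19 (adjusted p = 0.0032) and 1.29-fold lower than in Fh1_fl_fl (adjusted p = 4.29e-05). Higher Fh1 RNA in Rec was thus not seen, and Rec is used below as the name of the libraries labelled so. A count over the whole gene does not show whether the deleted part is present, so it does not check the labels.

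Ass1 RNA was higher in both clones than in Fh1_fl_fl and Rec cells, by 8.27-fold in clone19 against Fh1_fl_fl and by 1.53-fold in clone1. Arg1 RNA was 23.5-fold higher in clone1 than in Fh1_fl_fl cells and 8.84-fold lower in clone19. Arg2 RNA was 9.17-fold lower in clone1 and 1.99-fold lower in clone19. Asl RNA was lower in both clones, and Oat RNA was higher in both, than in Fh1_fl_fl. Otc and Nags had no count in any library, and Gatm and Nos2 were counted too rarely to test.

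The plot of members by library shows the 20 values of each of the 6 tested genes.

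**Figure D1:**
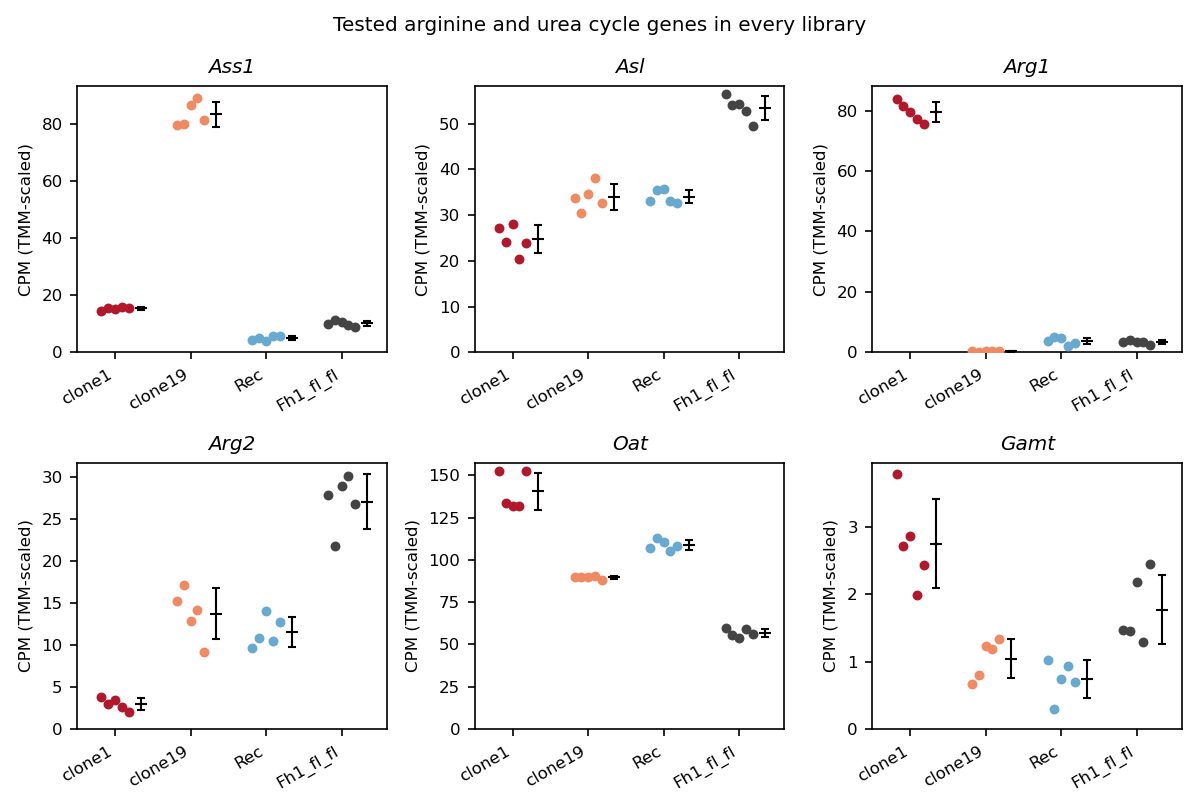
CPM on TMM-scaled library sizes of the 6 tested member genes in each of the 20 libraries. Each point is 1 library, and the bars are the mean ± SD over 5 libraries of clone1, clone19, Rec and Fh1_fl_fl. Ass1 is highest in clone19 (79.6 to 89.1 CPM) and Arg1 in clone1 (75.6 to 84.0 CPM), while Asl and Arg2 are highest in Fh1_fl_fl.

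Of the 10 members, 6 passed the filter on low counts. All 6 were called at an adjusted p under 0.05 (edgeR quasi-likelihood test, Benjamini-Hochberg over 12671 genes) in clone1 against Fh1_fl_fl, with 4 higher and 2 lower. Changes were common among all genes: 78.6% of the 12671 tested genes were called in that comparison, 38% higher and 40.5% lower. In clone19 against Fh1_fl_fl 2 members were higher and 4 lower, where 72.9% of all tested genes were called, 36.8% higher and 36.1% lower. With 6 members tested, and most genes called in either comparison, the count of members called is a description only. The median log2 fold change of the 6 tested members was 0.63 in clone1 and -0.69 in clone19, against -0.03 and 0.00 over all tested genes (a value of 0.0036 for clone19). Both clones were compared with the same 5 Fh1_fl_fl libraries. Scaling to library totals moved the median of all tested genes by more than 0.1, to -0.171 in clone1, -0.12 in clone19 and -0.166 in Rec against Fh1_fl_fl. The higher share of called genes was then 40.1% in clone1 (48.42% with TMM scaling), 40.68% in clone19 (50.47%) and 36.55% in Rec (47.16%). Every call on a member kept its direction and its side of the threshold under that scaling.

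Ass1 (ENSMUSG00000076441, chromosome 2, 31470207 to 31520672, plus strand, GRCm38), the enzyme that makes argininosuccinate and the step that usually limits arginine synthesis, had 14.3, 15.7, 15.2, 16.03 and 15.7 CPM in clone1 and 79.6, 79.9, 86.8, 89.1 and 81.5 CPM in clone19. Rec libraries had 4.30, 5.11, 4.01, 5.77 and 5.73 CPM, and Fh1_fl_fl libraries 10.1, 11.4, 10.8, 9.46 and 8.86 CPM. No group overlapped another: every clone19 library was above every clone1 library, every clone1 library above every Fh1_fl_fl library, and every Fh1_fl_fl library above every Rec library. Against Fh1_fl_fl the log2 fold change was 0.61 ± 0.09 (SE) in clone1 (adjusted p = 7.46e-07, edgeR) and 3.05 ± 0.08 in clone19 (adjusted p = 1.38e-21). In Rec, Ass1 was 16.7-fold lower than in clone19 (adjusted p = 4.43e-23), 3.07-fold lower than in clone1 (adjusted p = 4.8e-14), and 2.01-fold lower than in Fh1_fl_fl (adjusted p = 1.61e-09, edgeR). Ass1 was therefore lower in the Rec libraries than in each of the other groups.

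Ass1 and Oat were the members with RNA higher in both clones than in Fh1_fl_fl cells, and the promoter windows of both were available (RefSeq, GRCm38.p6, 250 bases before to 50 bases after the start, 6 of the 10 members matched). Each window held the letters ACGTG, the core of the sequence that hypoxia-inducible factors recognise, on at least 1 strand. The Ass1 match lies in the longer palindrome CACGTG, which contains ACGTG on both strands and is known as an E-box. It starts 36 bases before the RefSeq start. The GENCODE gene starts earlier, at 31470207, so by that annotation the match lies inside Ass1. Which start these cells use was not measured. The Oat match starts 15 bases after the start and lies on the opposite strand. The capitals mark the palindrome in Ass1 and the reverse complement of ACGTG in Oat, each written 5′ to 3′ on the strand of its gene, at chr2:31470222-31470251 (plus strand) and chr7:132576367-132576396 (minus strand).
Ass1: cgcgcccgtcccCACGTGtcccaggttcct
Oat: gggcgggacagaCACGTcgtcttaaacgac
Counting both strands, ACGTG occurs in 19.6% and CACGTG in 7.15% of all 32851 promoter windows of this length, so such a match is a description of the letters and not a site of binding. TGACNNNGC, the core of the antioxidant response element (12.4% of windows), and TGATGNAA, the core of the amino acid response element (3.97%), were not found in the 6 member windows. Gatm also held ACGTG, and Gamt, Nags and Otc held none of these motifs. Asl, Arg1, Arg2 and Nos2 had no window and were not searched.

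Asl (ENSMUSG00000025533, chromosome 5, 130011258 to 130029247, minus strand), the enzyme that releases fumarate or, in reverse, consumes it, followed another order. It had 27.3, 24.2, 28.1, 20.3 and 23.9 CPM in clone1 and 33.7, 30.4, 34.7, 38.2 and 32.8 CPM in clone19. Rec libraries had 33.2, 35.6, 35.8, 33.2 and 32.6 CPM, and Fh1_fl_fl libraries 56.45, 54.0, 54.4, 52.7 and 49.5 CPM. All clone and Rec libraries were below all Fh1_fl_fl libraries, and the Rec libraries lay within the range of clone19. Asl was 2.15-fold lower in clone1 (log2 -1.10 ± 0.08 SE, adjusted p = 3.54e-13, edgeR), 1.57-fold lower in clone19 (adjusted p = 1.33e-08), and 1.57-fold lower in Rec (adjusted p = 9.94e-09) than in Fh1_fl_fl. Rec against clone19 gave a log2 difference of 0.00 ± 0.08 (SE, value 0.0048, adjusted p = 0.96), whose sign changed with the scaling, while Rec was 1.37-fold higher than clone1 (adjusted p = 7.62e-06). Asl RNA in Rec thus did not stand at the level of Fh1_fl_fl.

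The ratio of the 2 enzymes is free of library scaling. Per kilobase of exon, the log2 ratio of Ass1 to Asl reads was 0.32 ± 0.24 in clone1, 2.30 ± 0.07 in clone19, -1.79 ± 0.28 in Rec and -1.40 ± 0.11 in Fh1_fl_fl (SD, n = 5 each). On this scale Ass1 was thus above Asl in all 10 clone libraries (lowest 0.07) and below it in all 10 Rec and Fh1_fl_fl libraries (highest -1.24). The scale rests on all annotated exons (2414 bases for Ass1, 4831 for Asl), and which isoforms were used was not measured. On the counts as deposited the mean log2 ratios were -0.68, 1.30, -2.79 and -2.40 in the same order of groups. All 5 clone1 libraries were then below 0 (-0.93 to -0.34), so the side of 0 in clone1 depends on the exon lengths used. No test was made on the ratio.

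The 2 arginases had unlike patterns. Arg1 (ENSMUSG00000019987, chromosome 10, 24915221 to 24927484, minus strand), the cytosolic arginase of liver and of activated macrophages, had 84.0, 81.6, 79.5, 77.3 and 75.6 CPM in clone1. The clone19 libraries held 3, 2, 3, 4 and 3 counts (0.498, 0.230, 0.525, 0.394 and 0.307 CPM), close to the limit of 3 counts. Rec libraries had 3.74, 4.92, 4.66, 2.24 and 3.19 CPM, and Fh1_fl_fl libraries 3.53, 4.05, 3.57, 3.30 and 2.59 CPM. The clone1 libraries were far above all others, the clone19 libraries were below all others, and Rec overlapped Fh1_fl_fl. The log2 fold change against Fh1_fl_fl was 4.55 ± 0.12 (SE) in clone1 (adjusted p = 2.06e-22, edgeR) and -3.14 ± 0.28 in clone19 (adjusted p = 1.31e-10). The direct comparison of clone19 with clone1 gave -7.70 ± 0.18 (adjusted p = 3.31e-22), the 21st largest change in size among 12671 genes. Rec differed from clone1 by -4.40 ± 0.12 and from clone19 by 3.30 ± 0.28 (adjusted p = 5.08e-22 and 4.39e-11). For Rec against Fh1_fl_fl the value was 0.15 ± 0.15 (adjusted p = 0.377), so a difference was not detected.

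Arg1 also marks liver cells and some macrophages, so the markers of those cells were read beside it. Of 5 hepatocyte markers, Ttr and Serpina1a had no count in any library, Alb had 3 counts in all, and Apoa1 had 6. Cyp2e1 was highest in clone1, at 0.737 ± 0.361 CPM, against 0.305 ± 0.238 in clone19, 0.200 ± 0.121 in Rec and 0.409 ± 0.048 in Fh1_fl_fl (SD, n = 5 each). The 5 hepatocyte markers summed to 0.26 to 1.1 CPM in clone1, 0 to 0.689 CPM in clone19, 0.0935 to 0.471 CPM in Rec and 0.324 to 0.441 CPM in Fh1_fl_fl. The summed level of 6 leukocyte markers was 21.5 to 23.7 CPM in clone1, 23.9 to 31.4 CPM in clone19, 22.0 to 27.5 CPM in Rec and 45.9 to 52.5 CPM in Fh1_fl_fl. Adgre1, Itgam and Lyz2 had 56, 16 and 38 counts over all 20 libraries. Csf1r was the largest part of the sum in clone1, Rec and Fh1_fl_fl, at 13.35 ± 1.47, 20.98 ± 2.13 and 43.5 ± 2.6 CPM (SD, n = 5 each). In clone19 Csf1r stood at 7.54 ± 2.17 CPM, and Cd68 was the largest part. Other markers went the other way from Csf1r. Cd68 stood at 7.61 ± 0.998 CPM in clone1, 18.1 ± 1.3 in clone19, 2.62 ± 0.80 in Rec and 3.97 ± 0.47 in Fh1_fl_fl, 1.92-fold higher in clone1 than in Fh1_fl_fl (adjusted p = 1.21e-06, edgeR) and 4.54-fold higher in clone19 (adjusted p = 4.24e-14). Adgre1 had 36 of its counts in clone1, 13 in clone19, 0 in Rec and 7 in Fh1_fl_fl, and Lyz2 had 11, 23, 0 and 4 in the same order. Ptprc, the pan-leukocyte antigen, stood at 0.692 ± 0.307 CPM in clone1, 0.599 ± 0.101 in clone19, 0.456 ± 0.079 in Rec and 0.519 ± 0.185 in Fh1_fl_fl. The part of other cell types in the Arg1 level was not tested.

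Arg2 (ENSMUSG00000021125, chromosome 12, 79130777 to 79156301, plus strand), the mitochondrial arginase and the form usual in kidney, had 3.79, 3.003, 3.41, 2.60 and 1.996 CPM in clone1 and 15.3, 17.2, 12.8, 14.2 and 9.11 CPM in clone19. Rec libraries had 9.63, 10.8, 13.99, 10.5 and 12.7 CPM, and Fh1_fl_fl libraries 27.8, 21.7, 28.9, 30.03 and 26.7 CPM. The clone1 libraries were the lowest and the Fh1_fl_fl libraries the highest, without overlap, and Rec lay within clone19. Against Fh1_fl_fl, Arg2 was 9.17-fold lower in clone1 (log2 -3.20 ± 0.17 SE, adjusted p = 9.34e-16, edgeR), 1.99-fold lower in clone19 (adjusted p = 2.59e-07) and 2.33-fold lower in Rec (adjusted p = 4.46e-09). In Rec against clone19 the log2 difference was -0.23 ± 0.15 (adjusted p = 0.154), and without clone19 replicate 5 it was -0.36 (adjusted p = 0.0192). Arg2 shares 285 of its 1428 exon bases with Vti1b on the opposite strand, and the strand setting of the counting is not given in the sources used here. Vti1b stood at 35.4 ± 4.4 CPM in clone1, 59.1 ± 6.5 in clone19, 59.3 ± 6.5 in Rec and 47.4 ± 6.1 in Fh1_fl_fl (SD, n = 5 each), and its part in the Arg2 counts was not tested.

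Per kilobase of exon, Arg1 and Arg2 together summed to 37.8 ± 1.9 CPM in clone1, 9.77 ± 2.11 in clone19, 9.75 ± 1.47 in Rec and 20.5 ± 2.2 in Fh1_fl_fl (SD, n = 5 each). Arg1 made up 94.6% ± 1.0 of that sum in clone1, against 1.87% ± 0.64 in clone19, 17.2% ± 4.3 in Rec and 7.59% ± 1.85 in Fh1_fl_fl. The prevailing arginase RNA was therefore Arg1 in all 5 clone1 libraries and Arg2 in all 15 others.

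**Figure D2:**
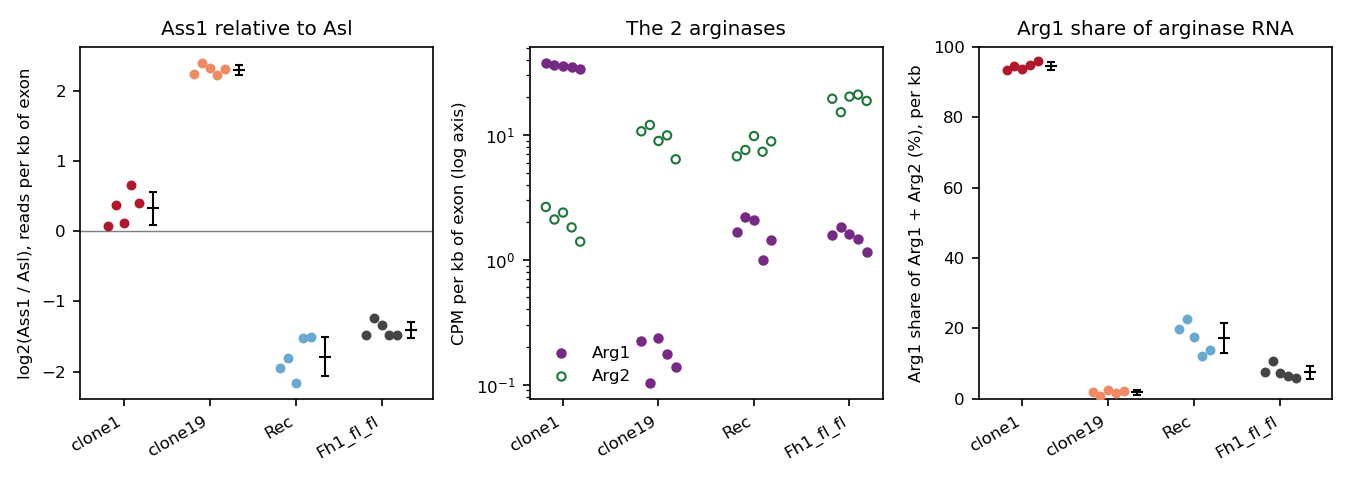
Left: log2 ratio of Ass1 to Asl reads per kilobase of exon. Middle: Arg1 (filled) and Arg2 (open) in CPM per kilobase on a log axis. Right: Arg1 share of the sum of both arginases. Points are libraries and bars mean ± SD over 5. The ratio per kilobase is above 0 in all clone libraries and below 0 in all Rec and Fh1_fl_fl libraries. On counts not divided by exon length it is below 0 in clone1 too. The Arg1 share is 93.4 to 96.0% in clone1 and at most 22.6% elsewhere.

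The enzymes that feed the cycle in mitochondria were not detected. Otc (ENSMUSG00000031173, chromosome X, 10252305 to 10321024, plus strand), which makes citrulline from ornithine, and Nags (ENSMUSG00000048217, chromosome 11, 102145513 to 102149477, plus strand), which makes the activator of carbamoyl phosphate synthetase, had 0 counts in all 20 libraries. At this depth that allows at most 0.158 to 0.501 CPM in single libraries. Cps1, the carbamoyl phosphate synthetase of the cycle, had 4 counts in all.

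Oat (ENSMUSG00000030934, chromosome 7, 132557478 to 132576398, minus strand), the mitochondrial aminotransferase that links ornithine to glutamate and proline, was the member with the most counts. It had 153, 133, 132, 132 and 152.5 CPM in clone1 and 89.8, 89.7, 90.0, 90.6 and 88.0 CPM in clone19. Rec libraries had 107, 113, 111, 105 and 108 CPM, and Fh1_fl_fl libraries 59.4, 55.6, 53.7, 59.1 and 56.1 CPM. The 4 groups did not overlap, in the order clone1, Rec, clone19 and Fh1_fl_fl. The log2 fold change against Fh1_fl_fl was 1.31 ± 0.06 (SE) in clone1 (adjusted p = 1.22e-17, edgeR), 0.66 ± 0.06 in clone19 (adjusted p = 5.5e-11) and 0.94 ± 0.06 in Rec (adjusted p = 3.35e-14). In Rec, Oat was 1.29-fold lower than in clone1 (adjusted p = 7.27e-07) and 1.21-fold higher than in clone19 (adjusted p = 6.07e-05). Oat was thus higher than in Fh1_fl_fl in Rec as well as in both clones.

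The enzymes of creatine synthesis were scarce. Gatm (ENSMUSG00000027199, chromosome 2, 122594467 to 122611303, minus strand), which transfers the amidino group of arginine to glycine, had 0, 2, 0, 0 and 0 counts in clone1, 0, 2, 2, 2 and 0 in clone19, 0, 0, 0, 1 and 0 in Rec, and 5, 3, 3, 2 and 3 in Fh1_fl_fl. Fh1_fl_fl was the group with a count in every library. Summed over a group, Gatm was 5.42-fold lower in clone1 than in Fh1_fl_fl (exact 95% counting interval 1.27 to 48.6) and 13.4-fold lower in Rec (2.08 to 563). In a fit without the filter on low counts the adjusted p (edgeR) was 0.0492 in clone1, 0.577 in clone19 and 0.0088 in Rec against Fh1_fl_fl.

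Gamt (ENSMUSG00000020150, chromosome 10, 80258151 to 80261012, minus strand), which methylates guanidinoacetate to creatine, had 3.79, 2.71, 2.86, 1.99 and 2.43 CPM in clone1 and 0.664, 0.806, 1.23, 1.18 and 1.33 CPM in clone19. Rec libraries had 1.03, 0.295, 0.736, 0.942 and 0.695 CPM, and Fh1_fl_fl libraries 1.47, 1.45, 2.19, 1.29 and 2.45 CPM. Both clones overlapped Fh1_fl_fl but not each other. The log2 fold change against Fh1_fl_fl was 0.66 ± 0.23 (SE) in clone1 (adjusted p = 0.01, edgeR) and -0.73 ± 0.28 in clone19 (adjusted p = 0.0235). The clone19 call was lost without clone19 replicate 1 (adjusted p = 0.0643) or 2 (0.0633), or without Fh1_fl_fl replicate 3 (0.0601) or 5 (0.0832). The direct comparison of clone19 with clone1 gave -1.38 ± 0.27 (adjusted p = 8.62e-05). Rec was 2.39-fold lower than Fh1_fl_fl (adjusted p = 2.58e-04) and 3.77-fold lower than clone1 (adjusted p = 4.2e-07), and did not pass the test against clone19 (log2 -0.53 ± 0.34, adjusted p = 0.158).

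Nos2 (ENSMUSG00000020826, chromosome 11, 78920787 to 78960254, plus strand), the inducible synthase that turns arginine into nitric oxide and citrulline, had 3, 0, 0, 0 and 2 counts in clone1, 0, 3, 1, 8 and 7 in clone19, none in Rec and 0, 2, 0, 0 and 0 in Fh1_fl_fl. Most of the 26 counts fell in clone19, in 4 of its 5 libraries. Summed over a group, the level in clone19 was 16.5-fold higher than in Fh1_fl_fl (exact 95% counting interval 3.99 to 146), and in clone1 3.69-fold higher (0.605 to 38.8). Rec was at least 9.24-fold lower than clone19, taking 3 counts over the whole group as the floor. Without the filter on low counts, the adjusted p (edgeR) was 8.17e-04 in clone19 and 0.286 in clone1 against Fh1_fl_fl, and 0.0502 in clone19 against clone1.

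Rec was compared with each clone because its origin is not labelled. The directions below hold for the libraries labelled Rec, where Fh1 RNA was lowest and whole-gene counts do not check the label. Against clone1, all 6 tested members were called, with 2 higher and 4 lower, where 77.9% of all tested genes were called (39.7% higher, 38.1% lower). Against clone19, 2 were higher (Arg1 and Oat) and 1 lower (Ass1), where 73.8% of all genes were called (35.8% higher, 38% lower). Against Fh1_fl_fl, 1 was higher (Oat) and 4 lower (Ass1, Asl, Arg2 and Gamt), where 70.8% of all genes were called (33.4% higher, 37.4% lower). The median log2 fold change of the 6 tested members was -0.99 against clone1, -0.11 against clone19 and -0.83 against Fh1_fl_fl, beside 0.01, -0.02 and -0.03 over all tested genes. The clones also differed from each other in all 6 members (3 higher and 3 lower in clone19), where 65.1% of all genes were called, 33.5% higher and 31.6% lower.

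**Figure D3:**
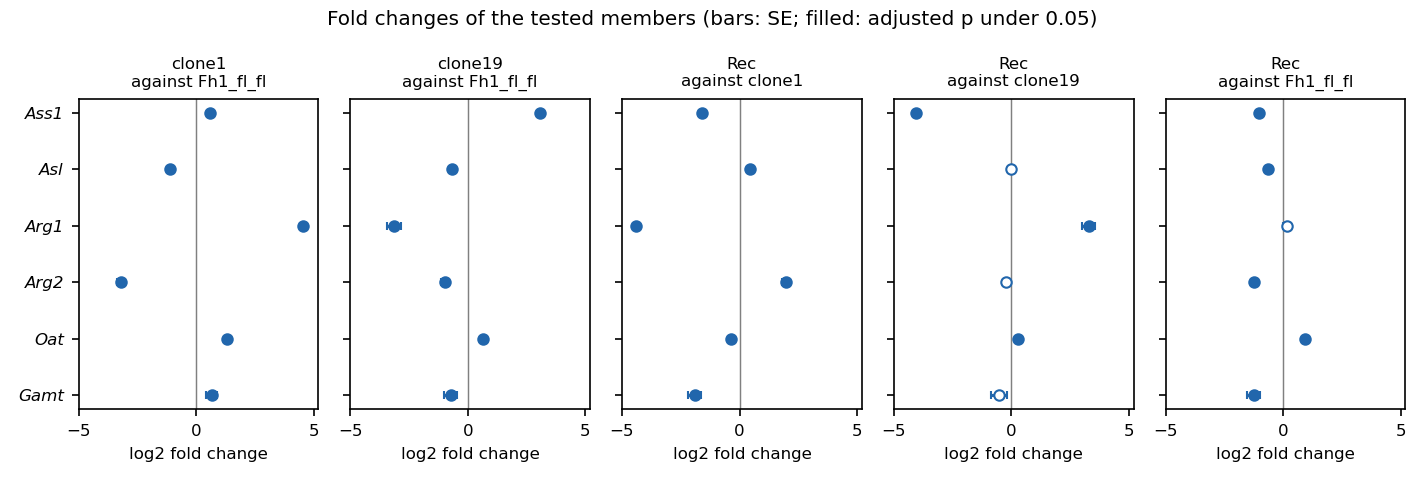
Log2 fold changes of the 6 tested member genes in 5 comparisons, with SE bars; filled symbols have an adjusted p under 0.05 (edgeR quasi-likelihood test). Arg1 and Gamt differ from Fh1_fl_fl in opposite directions in clone1 and clone19, and Ass1 is lower in Rec than in either clone.

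The genes around the cycle were read in 6 lists of neighbouring steps, in the 2 comparisons of a clone with Fh1_fl_fl. The shares of list genes called are to be read against the 78.6% of all tested genes called in clone1 and the 72.9% called in clone19. They were 80% and 100% for arginine transport, 85.7% and 71.4% for mitochondrial entry and aspartate supply, and 92.9% in both clones for ornithine use. They were 100% in both for creatine handling, 57.1% and 42.9% for nitric oxide, and 85.7% and 71.4% for fumarate-forming and fumarate-using genes, in clone1 and clone19. With 3 to 14 genes tested in a list, nothing particular to a list is read from these shares. Among 8 genes of arginine transport, 5 were tested: 2 were higher and 2 lower in clone1, and 2 were higher and 3 lower in clone19. Their median log2 fold changes were -0.12 in clone1 and -0.84 in clone19. Slc3a2, the heavy chain shared by several amino acid exchangers, had 600 ± 90 CPM in clone1, 426 ± 18 in clone19, 457 ± 21 in Rec and 152.5 ± 18.7 in Fh1_fl_fl (SD, n = 5 each), with log2 fold changes of 1.98 in clone1 and 1.48 in clone19 (adjusted p = 1.59e-17 and 1.16e-14, edgeR). Slc7a3, a cationic amino acid transporter, was scarce, at 0.229 ± 0.158 CPM in clone1, 0.310 ± 0.216 in clone19, 0.852 ± 0.356 in Rec and 1.99 ± 0.63 in Fh1_fl_fl, and was lower in clone1 (log2 -2.96, adjusted p = 2.21e-07) and in clone19 (-2.62, adjusted p = 2.01e-06). Slc7a7, the light chain of an exchanger that exports arginine, was 3.62-fold lower in clone19 (adjusted p = 3.24e-05) and did not pass the test in clone1 (log2 -0.12, adjusted p = 0.682).

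Of 9 genes of the mitochondrial entry to the urea cycle and of aspartate supply, 7 were tested, with 5 higher and 1 lower in clone1, and 3 higher and 2 lower in clone19 (median log2 0.56 and 0.15). Got1, the cytosolic aspartate transaminase, had 428 ± 30 CPM in clone1, 294 ± 9 in clone19, 272 ± 17 in Rec and 159.7 ± 7.6 in Fh1_fl_fl (SD, n = 5 each). It was 2.68-fold and 1.84-fold higher in clone1 and clone19 than in Fh1_fl_fl (adjusted p = 3.62e-18 and 1.75e-13, edgeR). Its mitochondrial counterpart Got2 was 1.29-fold and 1.23-fold higher (adjusted p = 3.77e-07 and 1.34e-05). Glud1, glutamate dehydrogenase, was 2.19-fold higher in clone1 (adjusted p = 1.65e-17). In clone19 its log2 fold change of 0.15 (adjusted p = 0.00737) was 0.03 with library totals (adjusted p = 0.687) and 0.11 without the filter (adjusted p = 0.169).

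Ornithine can pass to polyamines or to proline. Of 15 genes of ornithine use, 14 were tested, with 6 higher and 7 lower in each clone (median log2 -0.23 in clone1 and 0.02 in clone19). The pair of proline genes with the largest changes moved apart. Pycr1, which makes proline, had 162 ± 11 CPM in clone1, 114 ± 9 in clone19, 60.7 ± 5.3 in Rec and 30.3 ± 3.8 in Fh1_fl_fl (SD, n = 5 each), 5.38-fold and 3.79-fold higher in clone1 and clone19 than in Fh1_fl_fl (adjusted p = 8.08e-20 and 2.68e-17, edgeR). Prodh, which breaks proline down, had 7 counts over the clone1 libraries and 1 count over the clone19 libraries, against 274 counts in Rec and 218 in Fh1_fl_fl. Its log2 fold change was -4.30 in clone1 against Fh1_fl_fl (adjusted p = 5.32e-12), and in clone19 it was 125-fold lower (exact 95% counting interval 22.3 to 4970), its 1 count being in clone19 replicate 1. Pycr1 was thus high and Prodh near 0 in both clones.

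Of 5 genes of creatine handling, 3 were tested, with 2 higher and 1 lower in clone1 and 3 higher in clone19 (median log2 0.71 and 0.80). Ckb, the brain-type cytosolic creatine kinase, had 0.563 ± 0.243 CPM in clone1, 22.5 ± 3.3 in clone19, 3.65 ± 0.43 in Rec and 12.9 ± 1.9 in Fh1_fl_fl (SD, n = 5 each). It was 22.2-fold lower in clone1 (adjusted p = 9.92e-17, edgeR) and 1.74-fold higher in clone19 (adjusted p = 9.55e-07) than in Fh1_fl_fl. Ckmt1, a mitochondrial creatine kinase, had 3.94 ± 0.59 CPM in clone1, 0.548 ± 0.421 in clone19 and 0.128 ± 0.054 in Fh1_fl_fl, with 2 counts in Rec, and was 28.2-fold higher in clone1 (adjusted p = 2.85e-12) and 4.30-fold higher in clone19 (adjusted p = 0.00142), where the libraries overlapped those of Fh1_fl_fl.

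Of 8 genes around nitric oxide, 7 were tested, with 3 higher and 1 lower in clone1, and 2 higher and 1 lower in clone19 (median log2 -0.16 and -0.08). With library totals 5 rather than 3 of them were called in clone19. Gch1, the first enzyme of tetrahydrobiopterin synthesis, the cofactor of nitric oxide synthases, had 23.7 ± 2.8 CPM in clone1, 17.1 ± 2.4 in clone19, 3.24 ± 1.07 in Rec and 0.744 ± 0.307 in Fh1_fl_fl (SD, n = 5 each). It was 31.2-fold and 22.5-fold higher in clone1 and clone19 than in Fh1_fl_fl (adjusted p = 6.43e-18 and 2.92e-16, edgeR). Pts, the second enzyme of that route, was 3.99-fold lower in clone1 (adjusted p = 1.1e-10) and had a log2 fold change of -0.28 in clone19 (adjusted p = 0.108), which was called with library totals, without the filter and without clone19 replicate 2 or 3. Ddah1, which breaks down methylated arginines that inhibit nitric oxide synthases, was 2.46-fold and 4.11-fold higher (adjusted p = 4.97e-18 and 8.9e-22).

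All 7 fumarate-forming and fumarate-using genes other than Asl were tested, with 5 higher and 1 lower in clone1, and 3 higher and 2 lower in clone19 (median log2 0.36 and 0.18). Fh1 itself is among these 7 and among the 5 higher in clone1, where its call was lost with library totals (adjusted p = 0.0656, edgeR). Sdha, the succinate dehydrogenase subunit that forms fumarate, had 420.5 ± 25.4 CPM in clone1, 257 ± 15 in clone19, 202.5 ± 11.03 in Rec and 155 ± 5 in Fh1_fl_fl (SD, n = 5 each), 2.71-fold and 1.66-fold higher in clone1 and clone19 than in Fh1_fl_fl (adjusted p = 1.98e-18 and 6.19e-12, edgeR). Sdhc, a membrane subunit of the same complex, was 1.44-fold higher in clone1 (adjusted p = 1.8e-06). In clone19 its log2 fold change was 0.18 (adjusted p = 0.0522), which passed with DESeq2 (adjusted p = 0.0371), with RLE scaling, with only the 2 groups compared, and without clone1 replicate 1, 3 or 5, clone19 replicate 1 or 5, Fh1_fl_fl replicate 3 or 4, or Rec replicate 2 or 5. Fah, which releases fumarate in tyrosine breakdown, was 1.36-fold higher in clone1 (adjusted p = 8.47e-05) and 1.60-fold lower in clone19 (adjusted p = 8.23e-07).

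**Figure D4:**
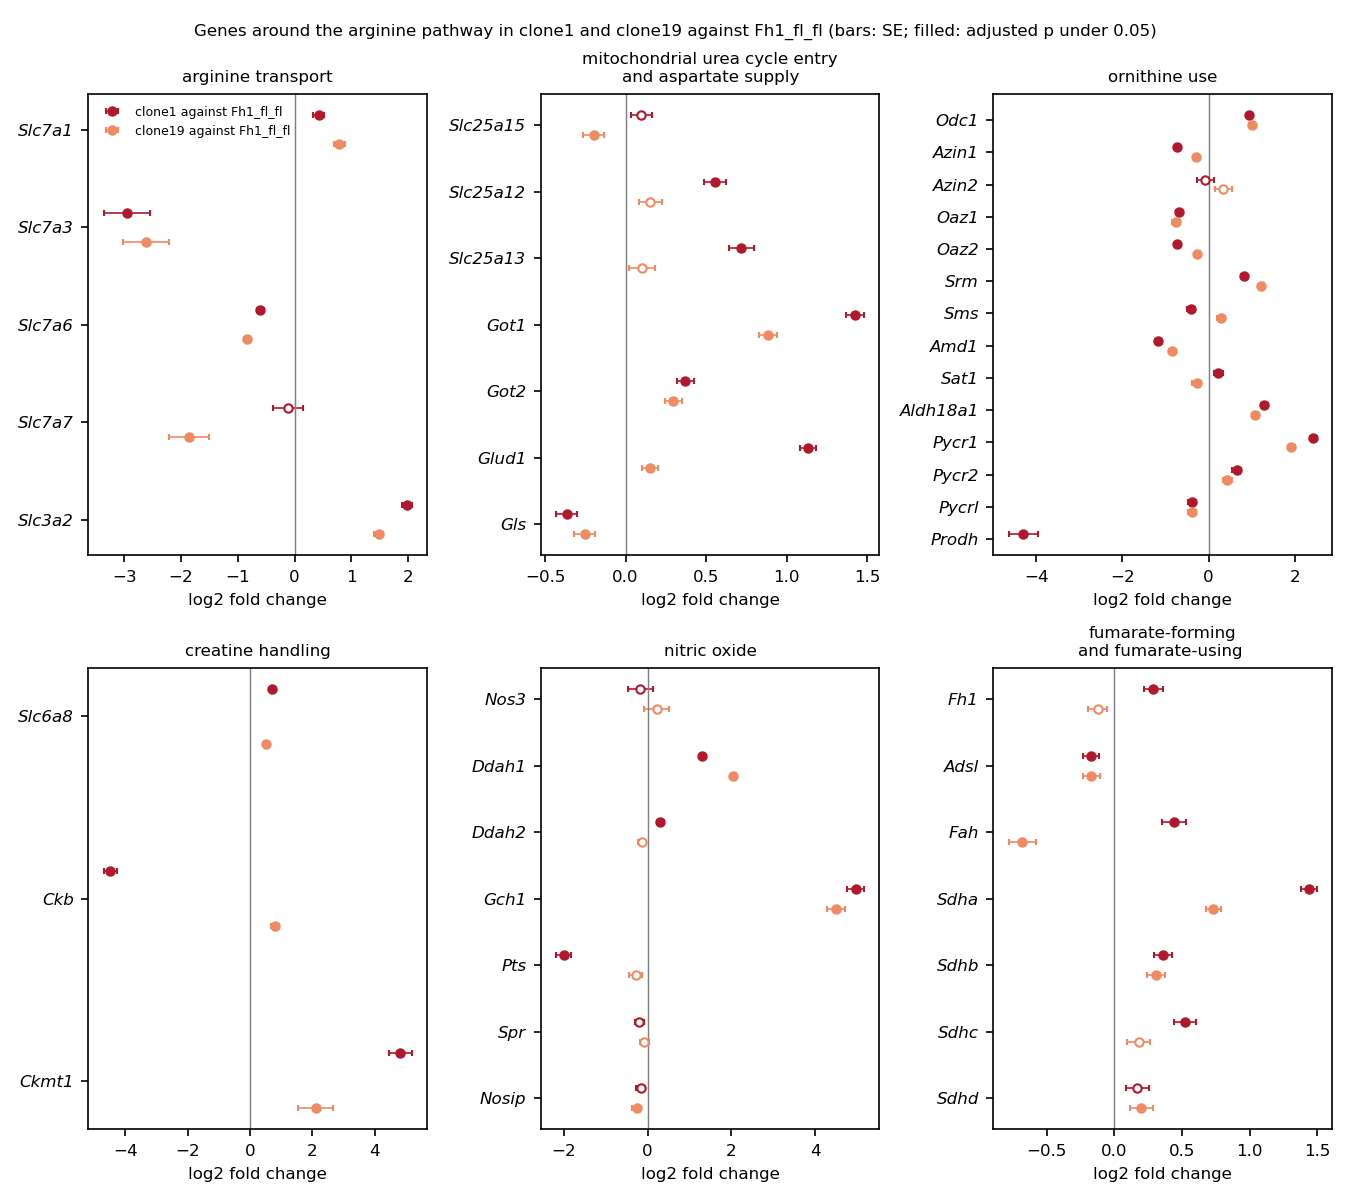
Log2 fold changes of the tested genes of 6 lists around the arginine pathway in clone1 and in clone19 against the same 5 Fh1_fl_fl libraries, with SE bars; filled symbols have an adjusted p under 0.05 (edgeR quasi-likelihood test). Prodh in clone19, with 1 count in the group, is not drawn. Gch1, Pycr1 and Slc3a2 are higher in both clones, and Ckb is 22.2-fold lower in clone1 and 1.74-fold higher in clone19.

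The genes most like Ass1 and Asl were found from the group means of log2(CPM + 0.5), centred on their own mean, over the 4 groups. The profiles nearest to Ass1 were those of Hyal1, Aim2 and Rarb (root-mean-square differences of 0.269, 0.276 and 0.279 log2 units). Hyal1 had 1.31 ± 0.62 CPM in clone1, 9.65 ± 3.02 in clone19, 0.423 ± 0.197 in Rec and 1.21 ± 0.43 in Fh1_fl_fl (SD, n = 5 each). Aim2 and Rarb stood at 12.9 ± 3.1 and 4.62 ± 1.18 CPM in clone19, and at 0.493 ± 0.210 and 0.023 ± 0.052 in Rec. The Rec means of Hyal1, Aim2 and Rarb were below the 0.5 CPM added before the log, so their likeness to Ass1 depends on it. Nearest to Asl were Lyplal1, Zfp943 and Hook1 (0.0093, 0.0279 and 0.0301). With 4 group means to compare, such likeness is a description of these lines.

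The labelled cell type was checked by its markers. The summed level of 6 epithelial markers (Cdh1, Epcam, Krt8, Krt18, Krt19 and Cldn7) was 1923 to 2465 CPM in clone1, 1575 to 1746 CPM in clone19, 3558 to 4056 CPM in Rec and 2423 to 2832 CPM in Fh1_fl_fl, so all groups expressed them. The sum joins unlike changes. In clone1 against Fh1_fl_fl, Epcam, Cldn7, Cdh1 and Krt8 were 5.06-fold, 3.62-fold, 2.53-fold and 1.48-fold lower. Krt18 and Krt19 were 1.17-fold and 1.84-fold higher there. In clone19, 1 marker was higher (Krt19) and 5 were lower. The 6 proximal tubule markers summed to 156 to 233.5 CPM in clone1, 94.2 to 153 CPM in clone19, 41.8 to 55.4 CPM in Rec and 59.5 to 78.8 CPM in Fh1_fl_fl. The defining transporters Slc34a1 and Slc22a6 had no count in any library, and Slc5a2 had 4 counts. Mean Lrp2 and Aqp1 followed the order of the sum, lowest in Rec at 12.58 and 3.792 CPM. Cubn did not: its mean was highest in Rec, at 33.28 CPM. It stood at 18.25 CPM in clone1, 19.49 in clone19 and 16.48 in Fh1_fl_fl. Against Fh1_fl_fl, Cubn did not pass the test in clone1 (adjusted p = 0.193, edgeR). In clone19 it was 1.19-fold higher (adjusted p = 0.047). In clone19, where Ass1 was highest, the proximal tubule sum was above and the epithelial sum below the range of Fh1_fl_fl, and their part in the results was not tested. Fibroblast markers summed to 3.82 to 6.93 CPM in clone1, 12.1 to 15.3 CPM in clone19, 1.31 to 1.87 CPM in Rec and 1.15 to 1.66 CPM in Fh1_fl_fl, and Thy1 had no count. Col1a1 was the largest part in clone1, at 3.45 ± 0.45 CPM (SD), and Dcn in clone19, at 8.50 ± 0.60 CPM. Pdgfra stood at 0.96 ± 0.73 CPM in clone1, 3.57 ± 1.57 in clone19 and 0.46 ± 0.22 in Fh1_fl_fl. Col1a2 went the other way, with 1 count in clone1 and 2 in clone19 against 11 in Fh1_fl_fl. The 4 endothelial markers summed to 1.22 to 2.81 CPM in clone1, 7.14 to 9.8 CPM in clone19, 0.637 to 0.982 CPM in Rec and 0.143 to 0.539 CPM in Fh1_fl_fl. Cdh5 carried that sum, at 12.8-fold higher in clone1 (adjusted p = 6.35e-09, edgeR) and 56.6-fold higher in clone19 (adjusted p = 5.47e-15) than in Fh1_fl_fl, while Kdr and Tek had 11 and 5 counts over all libraries. The fibroblast and endothelial sums were thus higher in both clones than in Fh1_fl_fl, and their part in the results was not tested. In bulk RNA, more cells that express a gene and more RNA per cell cannot be told apart.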

How the data were processed

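Per the labels, RNA of immortalised mouse kidney epithelial cells was purified on columns and sequenced in 20 libraries, grouped by genotype and title. The authors deposited raw read counts per Ensembl gene for each library. Per the submitters' processing notes, reads were handled with TopHat2 (version 2.0.4), HTSeq (version 0.5.3p9) and DESeq (version 1.10.1) on GRCm38. The sources used here give no settings or roles of these tools, nor a strand setting. Reads given to no gene (33.9 to 47.5% of a library, 28.8 to 40.3% without a unique alignment) entered neither library sizes nor tests. Symbols, positions and exon lengths came from GENCODE M21 (37693 of 39179 genes matched), and promoter windows from RefSeq.

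The edgeR filter filterByExpr kept 12671 genes and removed 26508. Libraries were scaled by TMM, and 1 quasi-likelihood model with 4 group means was fitted over all 20 libraries (edgeR 4.0.16, R 4.3.3). Each of 6 comparisons was tested with glmQLFTest at a Benjamini-Hochberg adjusted p under 0.05. The common biological coefficient of variation was 9.02%. CPM use TMM-scaled library sizes, and errors are SD over 5 libraries or SE of a log2 fold change. Groups with 0 to 3 counts were compared by exact 95% counting intervals or a floor of 3 counts. The test was tried on simulated data first, with few genes changed, in clone1 only. That trial does not show the error rate where most genes are called, as here.

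The members and lists were chosen with earlier results of these data known. Named besides the 10 members were the 2 tested genes of each list with the largest change in each clone against Fh1_fl_fl, and the 3 genes with the nearest profile to Ass1, Asl and Arg2; those of Arg2 are not reported here. Alternatives were RLE scaling, library totals, DESeq2 1.42.0, no filter, only the 2 groups compared, the replicate number as a block, and leaving out each library. Replicates were not identical: chi-square per degree of freedom was 2.04 to 19.4 in 36 replicate pairs, and 61.8 to 92.2 in the 4 pairs with clone19 replicate 3. Protein sequences were not used here.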

Additional observations from a re-analysis of the deposited data

Results flagged for a closer look

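The clones differed from each other in all 6 tested members, by the edgeR test of clone19 against clone1. That test compares how far each clone differs from the same Fh1_fl_fl libraries. The log2 differences, clone19 minus clone1, were 2.4387 for Ass1, 0.4497 for Asl, -7.6968 for Arg1, 2.2034 for Arg2, -1.383 for Gamt and -0.6496 for Oat. For Arg1 and Gamt the differences from Fh1_fl_fl had opposite signs in the 2 clones. For Ass1, Asl, Arg2 and Oat they had the same sign and unequal size. Of all tested genes, 65.1% were called in this comparison.

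Single libraries stood apart from the other 4 of their group, by Dixon's criterion (critical value 0.71), in 7 of 99 combinations of gene and group over 27 genes, where chance gives about 1 in 20. For 4 of them the value rests on 1 or 2 counts where the other libraries had none: Gatm in clone1 replicate 2 (0.1937 CPM) and in Rec replicate 4 (0.1177 CPM), Nos2 in Fh1_fl_fl replicate 2 (0.2077 CPM) and Prodh in clone19 replicate 1 (0.1659 CPM). Ckb was at 0.996 CPM in clone1 replicate 1, above the other clone1 libraries. Fh1 was at 122.9 CPM in the same library, also above the others. Sdha was at 183.5 CPM in Rec replicate 3, below the other Rec libraries.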

How the results depend on the processing

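Of 36 fold changes of tested members, 33 kept their direction and their side of the threshold under every alternative that gave a value. Asl in Rec against clone19, not called in any of them, changed sign with DESeq2 (-0.0028), RLE scaling (-0.0018) and library totals (-0.0033), and ranged from -0.0331 to 0.0566 with single libraries left out. Gamt in clone19 against Fh1_fl_fl and Arg2 in Rec against clone19 changed their call as given above. Slc7a7 in clone1 against Fh1_fl_fl, not called, ranged from -0.30 to 0.05 (0.0535 without Fh1_fl_fl replicate 5). Of 624 recomputed counts of called genes, 623 stayed within 1.5 times, and the exception was the nitric oxide list in clone19, with 5 called genes under library totals. Levels of Asl in Fh1_fl_fl (57.21 CPM) and of Oat in clone19 (87.9) and Fh1_fl_fl (60.79) moved by more than 1 SD with library totals.

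Replicate numbers did not pair the libraries: same-numbered libraries of different groups had correlations of their deviations from -0.309 to 0.271, over 0.1 in 7 of 30 pairs. Differently numbered libraries had -0.303 to 0.521, over 0.1 in 25 of 120 pairs. Ties between libraries that do not follow the replicate number were not tested. With the replicate number as a block, 9926 genes were called in clone1 and 9186 in clone19 against Fh1_fl_fl (9954 and 9241 without it), and no call on a member changed. Depth limits Arg1 in clone19, Gatm, Nos2 and Prodh. Gamt did not pass the count filter when only the Rec and clone19 libraries were fitted, so that alternative gave no value for it.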
